A study of Caenorhabditis elegans with 3 samples.

Results

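The genes described here are 10 components of Notch signalling, most of which act in or near the germline stem cells of Caenorhabditis elegans. They were chosen by name (glp-1, lin-12, lag-1, sel-8, lst-1, sygl-1, lag-2, sup-17, sel-12 and hop-1), and all 10 were found among the 46739 genes of the deposited count table, each as a protein-coding gene. RNA was measured in 3 libraries of germlines dissected from N2 worms, the wild-type laboratory strain, and all 3 belong to 1 group. The labels give no age, treatment or allele, and no second genotype was used as a control. They number the samples but do not tie the numbers to animals or cultures, so differences between the libraries may be technical.

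Notch is a receptor that sits in the membrane of a cell and is activated by a ligand on the surface of its neighbour. In the gonad of the worm, the distal tip cell, a somatic cell that caps the tip, presents the DSL ligands LAG-2 and APX-1 to the receptor GLP-1 on the germ cells. The bound receptor is cut first by an ADAM metalloprotease and then inside the membrane by gamma-secretase, whose catalytic subunit is a presenilin. The freed intracellular part enters the nucleus and joins the DNA-binding protein LAG-1 and the coactivator SEL-8, and this complex switches on lst-1 and sygl-1, whose products keep germ cells in the stem cell state together with PUF proteins. glp-1 mRNA is also present in more proximal germ cells and in oocytes, where its translation is repressed, and it is supplied to the embryo.

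The libraries held between 14523486 and 16656171 counts. A CPM (a count scaled to 1000000 counts of the library) therefore stood for 14.5 to 16.7 reads, and a count of 0 allowed a level of up to 0.207, 0.193 and 0.18 CPM in replicates 1, 2 and 3. The 10 genes took 0.105%, 0.11% and 0.109% of the counts. Markers of germ cells, meiotic prophase and oocytes were detected in 6 of 6, 5 of 5 and 5 of 5 cases. Sperm markers were detected in 5 of 6 cases, and their summed level was 2701 CPM in replicate 1, 281.1 CPM in replicate 2 and 843.7 CPM in replicate 3. Somatic transcripts were present as well. All 6 sheath and spermatheca markers were detected, with sums between 761.2 and 781.3 CPM, against 4 of 6 for the intestine, 3 of 4 for body wall muscle, 2 of 4 for the hypodermis and 1 of 5 for neurons, of which snt-1 had no count. The intestine sum lay between 284.2 CPM in replicate 1 and 1031 CPM in replicate 2, mostly from vit-2 and vit-6, whereas asp-1 and act-5 were highest in replicate 1, and the hypodermis sum between 39.2 CPM in replicate 2 and 526.5 CPM in replicate 1. By TPM the highest markers were cgh-1 of germ cells, syp-4 of meiotic prophase, perm-4 of oocytes, ssq-4 of sperm, inx-8 of the sheath, vit-6 of the intestine, unc-15 of muscle, col-140 of the hypodermis, unc-119 of neurons and hlh-12 of the distal tip cell. In these bulk samples, fewer cells of a type and less RNA per cell cannot be told apart.

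Of the 10 Notch genes, 9 were detected, which here means at least 1 CPM in each library, and the exception was the ligand gene lag-2. Of all 20362 protein-coding genes, 40.2% met this rule. At 10 CPM or more in each library stood 6 of the 10 genes, against 26.6% of protein-coding genes, and at 100 CPM or more stood 4 of them (glp-1, sup-17, lst-1 and sygl-1), against 7.03%. The 10 genes were chosen with earlier results of these data known, so the comparison with these shares is a description and not a test. To compare genes with each other, counts were divided by the merged exon length of the gene and scaled to a sum of 1000000 in each library (TPM, a level per length). On this scale the order from high to low was sygl-1, lst-1, sup-17, glp-1, hop-1, lag-1, sel-12, sel-8, lin-12 and lag-2. Of the 9 neighbouring pairs in the order, 8 had library ranges that did not overlap, and sel-8 and lin-12 overlapped.

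**Figure D1:**
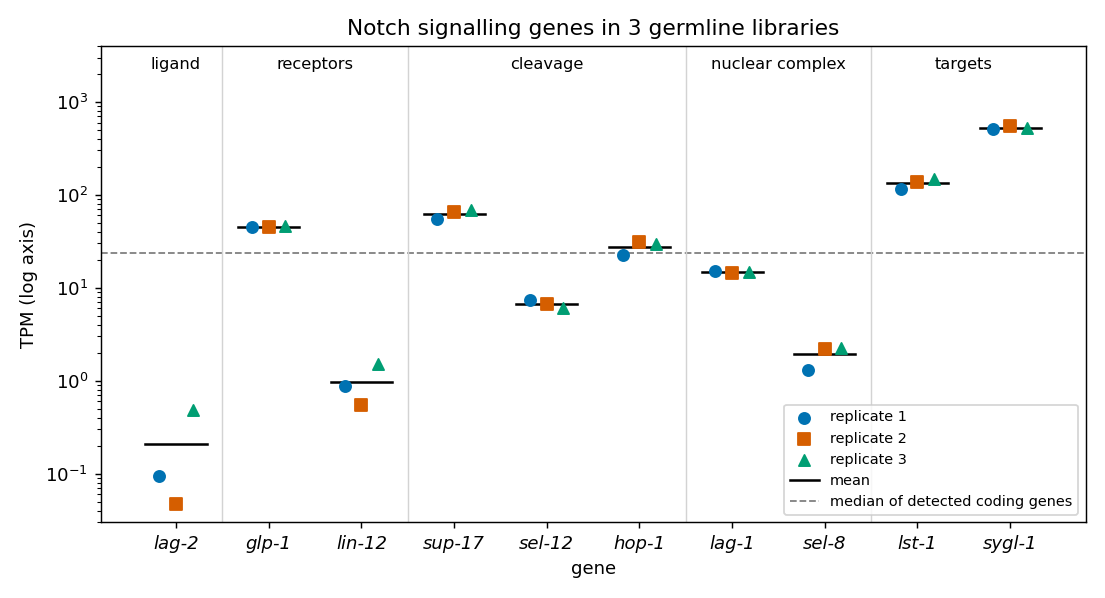
TPM on a log axis of the 10 Notch signalling genes, grouped by role, with 1 point per library, a bar at the mean and a dashed line at the median of detected protein-coding genes (23.8 TPM). The germline targets lie highest, the receptor genes glp-1 and lin-12 lie far apart, and lag-2 is the lowest.

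The ligand came first in the pathway and last in level. lag-2 (WBGene00002246, chromosome V, 3188343 to 3190115, plus strand), which encodes the DSL ligand of the distal tip cell, had 2, 1 and 11 counts in replicates 1, 2 and 3. This corresponds to 0.138 CPM (95% exact Poisson interval 0.0167 to 0.497), 0.0642 CPM (0.00163 to 0.358) and 0.66 CPM (0.33 to 1.18). The intervals cover counting error only, as PCR copies are not independent molecules. Replicate 3 was the highest of the libraries, and the intervals of all 3 overlapped. The other distal tip cell markers were also low in CPM. The metalloprotease gene gon-1 had 0.275, 0.45 and 0.66 CPM, and the bHLH gene hlh-12 had 1.72, 2.89 and 0.961 CPM. Per length they were not alike, with a mean of 3.98 TPM for hlh-12, 0.0634 TPM for gon-1 and 0.21 TPM for lag-2. None of the 3 distal tip cell markers met the detection rule, and each had at least 1 count in every library.

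Of the other 9 DSL ligand genes, 2 were detected. apx-1, which encodes a ligand of the distal tip cell and also a maternal ligand that signals to GLP-1 in the early embryo, had 17.8, 15.6 and 16.2 CPM, or 6.39 ± 0.268 TPM (SD, n = 3). dsl-2 had 7.51, 12.5 and 11.4 CPM, below apx-1 in every library, but per length it was the highest of the family at 11 ± 3.02 TPM. Between them these genes held 53.5% ± 7.82 (dsl-2) and 32.3% ± 7.46 (apx-1) of the summed TPM of the 10 DSL genes, while lag-2 held 0.586%, 0.219% and 2.07% in replicates 1 to 3. The third highest, dsl-3, had 1.72, 0.642 and 3.54 CPM and missed the rule in replicate 2. No count was found for dsl-4, dsl-5 and dsl-7, the lowest members.

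DOS proteins, which share a motif with Notch ligands and act beside them, were represented by 1 of 5 genes. osm-11 had 11.8, 4.82 and 24.1 CPM, a ratio of 5.01 between the highest and the lowest library. osm-7 followed with 0.551, 0.899 and 2.04 CPM, then dos-1 with a mean of 0.149 CPM, and dos-2 had no count.

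The receptor genes glp-1 and lin-12 encode the only Notch receptors of the worm and are neighbours on chromosome III. lin-12 (WBGene00003001, 9060221 to 9071472) is read from the minus strand and glp-1 (WBGene00001609, 9092241 to 9099698) from the plus strand, away from each other. Between them lie 20.8 kb with 5 protein-coding genes, of which 3 were detected. Their exons were similar in total length, 4326 bases for glp-1 and 4555 for lin-12, so that length hardly enters the comparison.

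glp-1 had 187.6, 182 and 183.2 CPM in replicates 1 to 3. Its coefficient of variation (SD over mean) was 1.58% on column totals, against 1.87% from counting alone at its mean count, and 5.10% with edgeR's TMM and 5.45% with DESeq2 size factors. In TPM glp-1 reached 45.6 ± 1.03 (SD, n = 3), rank 2535 of 20116 protein-coding genes with an exon length. lin-12, whose product acts in somatic fate decisions of the gonad and the vulva, had 3.86, 2.31 and 6.18 CPM, or 0.972 ± 0.481 TPM. Replicate 2 held the lowest level and replicate 3 the highest. On column totals the 95% Poisson interval of replicate 3 (5.05 to 7.5 CPM) lay above that of replicate 2 (1.62 to 3.2 CPM). It only just cleared that of replicate 1 (2.91 to 5.01 CPM). With TMM or DESeq2 size factors replicate 3 fell to 5.87 CPM, and replicate 1 rose to 3.89 and 3.99 CPM. Intervals were not computed on those scales, so a separation of replicates 1 and 3 is not established. Its coefficient of variation was 47.3%, against 12.4% from counting alone.

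Per length, glp-1 exceeded lin-12 by 5.66 ± 0.70 log2 units (SD, n = 3), a 50.5-fold difference that ranged from 31.1-fold in replicate 3 to 81.7-fold in replicate 2. glp-1 accounted for 98.1%, 98.8% and 96.9% of the summed receptor TPM. The difference was far larger than its spread over the libraries. With 3 libraries an exact sign-flip test, two-sided, cannot give a p below 0.25. Each of the 6 differences between genes tested in this way kept its direction in 3 of 3 libraries and reached that smallest p (exact, 0.25 after adjustment over the 6 pairs).

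**Figure D2:**
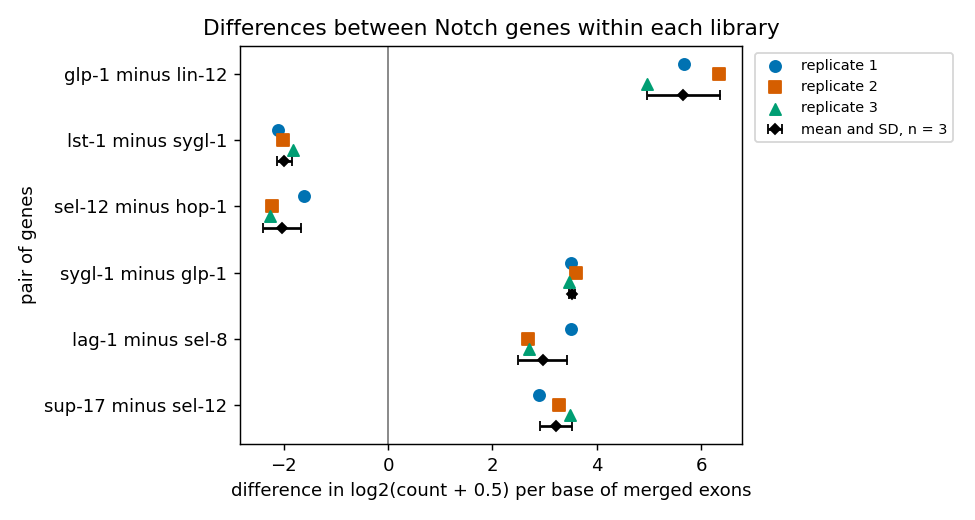
Difference in log2(count + 0.5) per base of merged exons between the genes of each of 6 pairs, with 1 point per library and a diamond with a bar for the mean and SD of the 3 libraries. Every pair stays on the same side of 0 in all libraries, and the pair sygl-1 and glp-1 has the smallest SD, 0.07.

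The protease genes of the 2 cleavage steps stood at unequal levels. sup-17 (WBGene00006324, chromosome I, 8792964 to 8797295, plus strand), the ADAM10-type metalloprotease gene of the first cut, had 180.1, 203.4 and 212.7 CPM, or 62.9 ± 7.44 TPM. Replicate 1 was the lowest, and the libraries differed by a factor of 1.18. The related protease gene adm-4 had 15.9, 18.6 and 19.4 CPM, or 7.65 ± 1.03 TPM.

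The worm has 3 presenilin genes. hop-1 (WBGene00001985, chromosome I, 4208515 to 4210341, minus strand) had 25.1, 33.3 and 30.9 CPM, or 27.6 ± 4.64 TPM, with replicate 1 below the others. sel-12 (WBGene00004769, chromosome X, 915867 to 918290, plus strand), which acts redundantly with hop-1 in Notch signalling, had 10.5, 9.06 and 8.17 CPM, or 6.7 ± 0.627 TPM, with replicate 1 above the others. The difference in log2 level per length, sel-12 minus hop-1, was -2.03 ± 0.37 (n = 3), so that hop-1 stood 4.09-fold higher, from 3.04-fold in replicate 1 to 4.81-fold in replicate 3. sup-17 exceeded sel-12 by 3.22 ± 0.31 log2 units per length, or 9.34-fold. sel-12 was the X-linked gene among the 10, the other 9 being autosomal.

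The third presenilin gene, spe-4, which acts in spermatogenesis, had 19.2, 1.8 and 10.6 CPM. It made up 29.5% of the summed presenilin TPM in replicate 1, 3.13% in replicate 2 and 17.1% in replicate 3. The sperm marker sum given above had the same order of libraries, with replicate 1 the highest and replicate 2 the lowest, and its part in the spe-4 values was not tested.

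The non-catalytic subunits of gamma-secretase were all detected. pen-2 had 59.5, 98.4 and 70.1 CPM and was the highest gene of the cleavage list at 168.9 ± 47.4 TPM. aph-1 had 47.2 ± 7.23 TPM, and the nicastrin gene aph-2 had 17.9 ± 2.59 TPM. The tetraspanin gene tsp-12, whose product promotes Notch signalling, had 73.8, 75.4 and 73.2 CPM, or 63.8 ± 2.41 TPM. Its paralogue tsp-14 was the lowest of the list and was not detected, at 1.31, 0.964 and 0.3 CPM. In all, 6 of the 7 other cleavage genes were detected.

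The nuclear complex was represented unevenly. lag-1 (WBGene00002245, chromosome IV, 6095407 to 6110655, plus strand), the CSL-type DNA-binding factor on which the pathway ends, had 68.6, 62.4 and 63.5 CPM, or 14.8 ± 0.35 TPM, and the libraries differed by a factor of 1.10. sel-8 (WBGene00004765, chromosome III, 3612951 to 3627142, minus strand), the Mastermind-like coactivator gene, had 2.34, 3.79 and 3.78 CPM from 34, 59 and 63 counts, or 1.93 ± 0.539 TPM. Replicate 1 was the lowest for sel-8 and the highest for lag-1. Per length, lag-1 exceeded sel-8 by 2.97 ± 0.47 log2 units, or 7.82-fold, ranging from 6.42-fold to 11.4-fold. No exon base of sel-8 is shared with another gene in the Ensembl annotation used here. Whether the authors counted reads on the same gene model of sel-8 is not known, and its level per length and this fold rest on that model and on few counts. Of the exon bases of lag-1, 6.24% are shared with genes on the opposite strand, and no source used here gives the strand setting of the counting.

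The targets in the germline stem cells were the most abundant of the 10 genes. sygl-1 (WBGene00012104, chromosome I, 12483809 to 12486235, plus strand) had 411.3, 428 and 395.6 CPM, or 525.6 ± 24.1 TPM, which is rank 241 of 20116. lst-1 (WBGene00003083, chromosome I, 10588501 to 10590465, plus strand) had 157.9, 175.3 and 185.8 CPM, or 133.2 ± 15.4 TPM, which is rank 857. sygl-1 was highest in replicate 2, and lst-1 was lowest in replicate 1. Whether lst-1 was higher in replicate 2 or 3 turned with the scaling, as it was highest in replicate 3 on column totals and in replicate 2 with TMM or DESeq2 size factors. Per length, lst-1 minus sygl-1 was -1.99 ± 0.15 log2 units, a 3.96-fold higher level of sygl-1, and sygl-1 made up 81.2%, 80.2% and 78% of their summed TPM.

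Length mattered for this comparison. In CPM, lst-1 (173 ± 14.1), glp-1 (184.3 ± 2.92) and sup-17 (198.7 ± 16.8) lay close together, whereas in TPM lst-1 stood above sup-17 by a factor of 2.12 and sup-17 above glp-1 by a factor of 1.38. The merged exons measured 838 bases in sygl-1, 1392 in lst-1, 3388 in sup-17 and 4326 in glp-1. Per length, sygl-1 exceeded glp-1 by 3.53 ± 0.07 log2 units, or 11.5-fold, from 11.1-fold to 12.1-fold over the libraries. That ratio had the smallest SD of the 6 pairs. Both genes had at least 2724 counts in each library. In other pairs lin-12, sel-8 and sel-12 had at most 153, where counting error alone widens the SD.

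The median coefficient of variation over detected protein-coding genes was 13.6%, with quartiles of 7.86% and 24.5%. Of the 9 detected Notch genes, 3 lay above that median, namely lin-12 at 47.3%, sel-8 at 25.3% and hop-1 at 14.1%. On column totals glp-1 at 1.58%, sygl-1 at 3.93% and lag-1 at 5.11% lay lowest. These low values depended on the scaling, with sygl-1 at 8.94% and lag-1 at 6.94% under TMM, and sygl-1 at 8.11%, lag-1 at 8.26% and lst-1 at 5.12% with DESeq2 size factors. lin-12 stayed the most variable of the detected genes, at 42.5% and 42.9%.

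Of the 10 genes and the other 65 genes of the pathway lists together, 55 were detected, and 3 of these differed by at least 2-fold between libraries, against 15.5% of detected protein-coding genes. They were lin-12, osm-11 and spe-4. In lin-12 and osm-11 replicate 2 was the lowest and replicate 3 the highest, an order also seen in the ligand genes dsl-3 and lag-2, which were not detected. The co-ligand genes dos-1 and dos-3 had it with at most 4 counts in a library. Other ligand and co-ligand genes had other orders. apx-1 was highest in replicate 1, dsl-2 and arg-1 in replicate 2, and osm-7 and dsl-1 rose from replicate 1 to 3. Of the 8194 detected protein-coding genes, 21.1% had the order of lin-12, and 1.26% had it with replicate 3 at least 2-fold above replicate 2. Among the sheath and spermatheca markers, lim-7 (7.23, 6.49 and 8.71 CPM) and the filamin gene fln-1 (459.9, 398.2 and 553.5 CPM) had the same order with smaller ratios. The opposite order was found for 3 of these 6 markers, inx-8 (230.5, 294.6 and 172.4 CPM), inx-9 and fkh-6, and ceh-18 had another. Of the germ cell markers, 4 of 6 shared the order of lin-12 on column totals, with sums of 4589, 4034 and 5933 CPM for the list. On the same scale 4 of 5 markers of meiotic prophase had it. TMM shifted replicate 2 by 0.0707 and replicate 3 by -0.0746 log2 units. Orders that rest on small ratios, such as that of the prophase marker htp-3 (108.4, 104.8 and 117.7 CPM), can therefore change with the scaling. The part of any cell type in these differences was not tested.

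**Figure D3:**
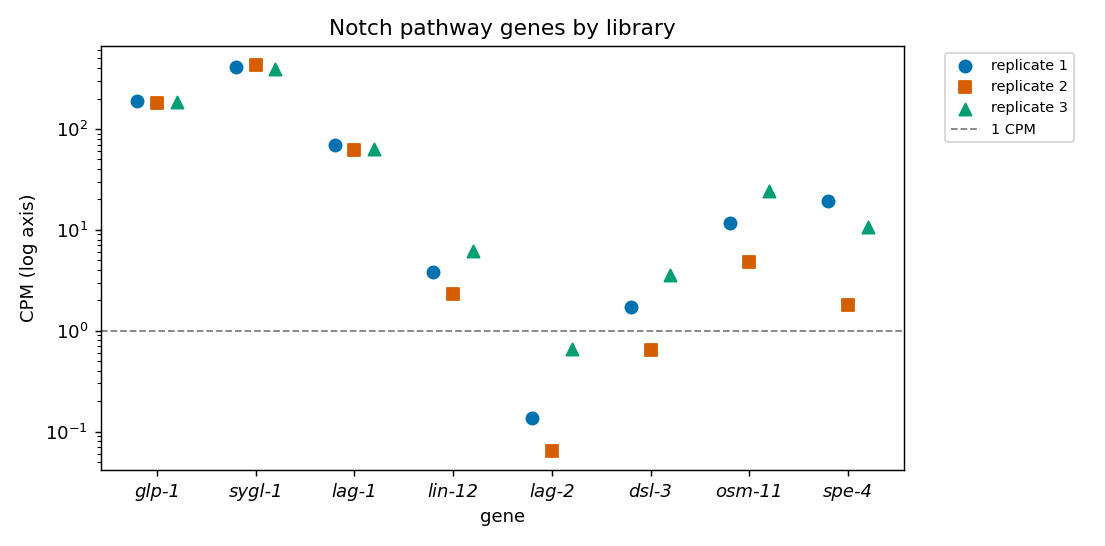
CPM on a log axis of 8 pathway genes in each of the 3 libraries, with a dashed line at 1 CPM. The 3 points of each of glp-1, sygl-1 and lag-1 lie close together, lin-12, lag-2, dsl-3 and osm-11 are lowest in replicate 2 with their highest point in replicate 3, and spe-4 peaks in replicate 1. The ligand genes apx-1, dsl-2 and arg-1, which are not drawn, had other orders.

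The genes with the most similar values over the 3 libraries were sought by the distance in log2(CPM + 1), which with 3 libraries mainly finds genes of equal level. Nearest to glp-1 were the proteasome subunit gene pas-6 (distance 0.03), pqe-1 (0.03) and daz-1 (0.06), which encodes an RNA-binding protein of oogenesis. Nearest to lst-1 were the zinc finger gene zfp-2 (0.07), B0001.2 (0.07) and neg-1 (0.08). Nearest to sygl-1 were D1081.7 (0.11), the glycolytic gene gpd-1 (0.11), which has close copies among the gpd genes, and the sodium pump gene eat-6 (0.15).

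The other 65 genes of the lists were detected in 46 cases (70.8%), against the 40.2% of all protein-coding genes. Of these lists, the stem cell pool partners (8 of 8) and the genetic modifiers of glp-1 (7 of 7) name genes with a role in the germline. gld-1 and nos-3 also served as germ cell markers. Detection of such genes in dissected germlines could be foreseen, so the share does not describe the Notch pathway alone. No count was found for 8 of the 65, against 22.9% of protein-coding genes. The median was 15.6 TPM, against 0.585 TPM over all protein-coding genes. The lists were not alike. Ligands and co-ligands had medians of 0.28 and 0.181 TPM, and the targets of somatic tissues 3.32 TPM. The lists of cleavage, presenilin suppressors and coactivator, trafficking, glp-1 modifiers and stem cell pool partners had medians between 17.9 and 79.3 TPM.

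**Figure D4:**
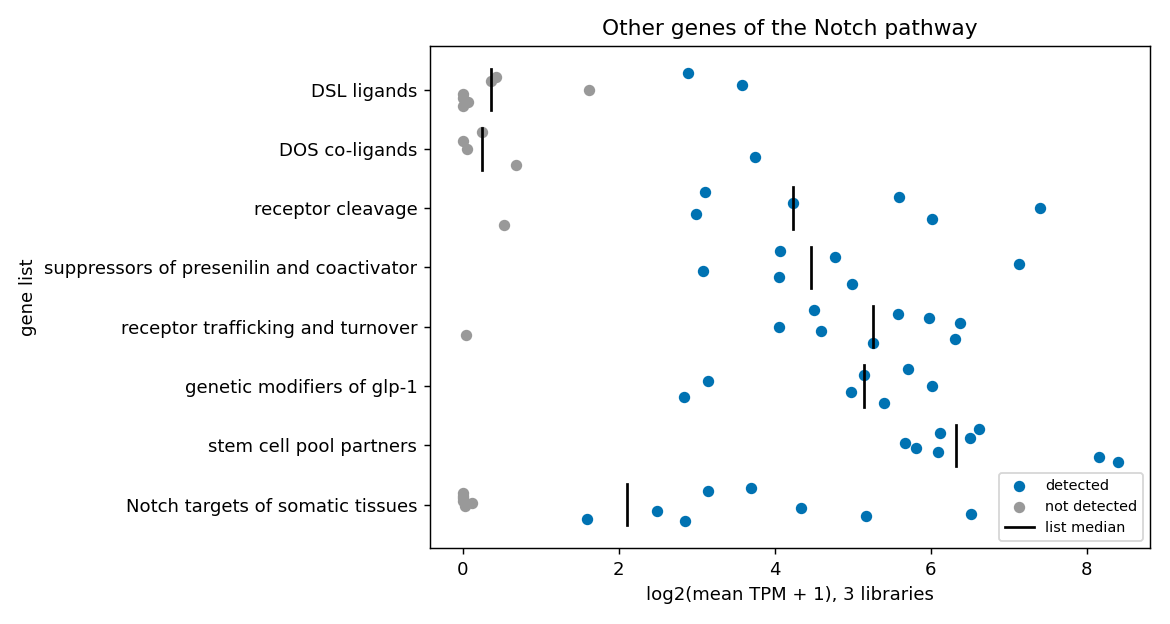
log2(mean TPM + 1) of the other 65 pathway genes by list, with 1 point per gene in blue where it had at least 1 CPM in each library and in grey where it had not, and a bar at the list median. Most ligand and co-ligand genes lie near 0, and all 8 stem cell pool partners were detected.

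Genes that modify presenilin function or assist transcription were all detected (6 of 6, median 21.1 TPM). The suppressors of presenilin are chromatin genes. spr-2, of the SET/NAP family, had 139.1 ± 14.3 TPM, the demethylase gene spr-5 had 30.9 ± 2.95 TPM and the CoREST gene spr-1 had 26.3 ± 2.48 TPM. The lowest was the zinc finger gene spr-3 at 7.43 ± 0.812 TPM, which is X-linked. The CBP-type acetyltransferase gene cbp-1 had 15.8 ± 0.957 TPM, close to lag-1.

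Genes of receptor trafficking and turnover were detected in 8 of 9 cases (median 37.5 TPM). The highest were sel-11, an ER ubiquitin ligase gene, at 82 ± 7.94 TPM, the p24 family gene sel-9 at 78.3 ± 7.4 TPM and sel-10 at 62.4 ± 2.98 TPM. SEL-10 is the F-box protein that targets the Notch intracellular domain for degradation, and its gene had 144.5, 143.1 and 148.3 CPM, with little difference between libraries. The exception was the X-linked sel-7, with 2 counts in replicate 1 and none in the others.

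All 7 genes listed here as genetic modifiers of glp-1 were detected (median 34.3 TPM). Whether each of them interacts with glp-1 was not tested. The highest were glp-4, a valyl-tRNA synthetase gene that the deposited table lists as vars-2, at 63.8 ± 15.3 TPM, the ataxin-2 gene atx-2 at 51.3 ± 8.46 TPM and the splicing factor gene teg-4 at 41.3 ± 4.1 TPM. The lowest was teg-1 at 6.18 ± 0.481 TPM. glp-4 was highest in replicate 3 (194.8, 177.9 and 263.8 CPM), unlike glp-1.

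The partners of LST-1 and SYGL-1 and the regulators of the switch to meiosis were detected in 8 of 8 cases (median 79.3 TPM). puf-3 had 336.9 ± 16.6 TPM and puf-11 had 285.4 ± 19 TPM, between sygl-1 and lst-1, and both encode PUF proteins. fbf-1 had 97.5 ± 16.4 TPM and fbf-2, itself a known Notch target, had 68.8 ± 14.3 TPM. Both were highest in replicate 3 (fbf-1 193.6, 183.2 and 238.6 CPM, fbf-2 136.9, 125.8 and 176.9 CPM). These PUF genes are close pairs, so reads that match both copies may have been lost or split. The lowest of the list, the poly(A) polymerase gene gld-2, had 49.9 ± 9.47 TPM.

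Of 14 genes described as Notch targets in other tissues, 8 were detected (median 3.32 TPM), beside 40.2% of all protein-coding genes. The highest was lst-3 at 90.5 ± 6.82 TPM, followed by lst-4, a sorting nexin gene, at 35 ± 2.46 TPM and the MAP kinase phosphatase gene lip-1 at 19.3 ± 0.396 TPM. Of the bHLH genes of the REF-1 family, which are Notch targets in the embryo, ref-1 was detected at 2.2, 3.34 and 2.34 CPM. No count was found for hlh-25, hlh-26 and hlh-27, and hlh-28 and hlh-29 had at most 2 counts in a library. Several of these hlh genes are near-identical copies, so a low count need not mean a low level. The zinc finger gene egl-43, a target in the somatic gonad, had no count either.

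X linkage went with lower values among the pathway genes. Of the 14 X-linked genes of the 10 and the lists, 8 were detected, with a median of 7.54 TPM among those detected, and the highest was the epsin gene epn-1 at 21.7 ± 3.21 TPM. Of the 61 autosomal genes, 47 were detected, with a median of 41.3 TPM. The same difference ran through the genome, where 32.8% of X-linked and 41.8% of autosomal protein-coding genes were detected, with medians of 5.84 and 27.5 TPM among those detected. sel-12, at 6.7 TPM, lay close to the median of detected X-linked genes. This split by chromosome was chosen after the values were seen.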

How the data were processed

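The 3 libraries were made from dissected wild-type germlines with a SMART-Seq v4 low-input kit, per the labels' protocols, which copies whole transcripts and amplifies them by PCR. The deposited table gives unnormalized counts of reads for each gene; STAR, featureCounts and build WBcel235 are named in the submitters' processing notes. No source used here gives versions, the annotation release, the strand setting or the handling of reads with several matches.

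CPM were computed on each column total. TPM used merged exon lengths from the Ensembl release 115 annotation of WBcel235, which gave a length to 46484 genes (20116 protein-coding) and none to 255 (246 protein-coding). Detection required 1 CPM or more in every library. Differences between genes were taken within a library as log2(count + 0.5) per length and tested by an exact sign-flip permutation. Calculations used Python 3.11.15, scipy 1.17.1, edgeR 4.0.16 (TMM) and DESeq2 1.42.0 (size factors, an alternative), and were tested on simulated data.

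The 10 genes and the lists were chosen with earlier results of these data known. The text names the 10 genes, the 3 highest and the lowest genes of each pathway list by TPM, the highest marker of a list and the 3 genes nearest to glp-1, lst-1 and sygl-1; other genes were named after seeing their values. The pathway lists held 65 other genes, 1 of them matched by its current symbol. A planned count of LAG-1 motifs in promoters was not made, because no sequence was used here.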

Additional observations from a re-analysis of the deposited data

How the results depend on the processing

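No comparison between groups was possible because there is 1 group of libraries. The count of 9 detected genes stayed at 9 at a minimum of 0.5 CPM, with a count of at least 10, in at least 2 of the 3 libraries, with edgeR's TMM, with DESeq2 size factors, with the total on protein-coding genes and without any 1 replicate. It was 7 at 5 CPM and 6 at 10 CPM. The 46 other pathway genes ranged from 41 at 10 CPM to 48 at 0.5 CPM, and were 46 to 47 without a replicate. Restricting the background to genes with any count raised the detected share of protein-coding genes from 40.2% to 52.2%. No difference between genes changed sign. Without length, lst-1 minus sygl-1 was -1.25, sygl-1 minus glp-1 1.16, lag-1 minus sel-8 4.31 and sup-17 minus sel-12 4.42 log2 units. With the longest coding length, sygl-1 minus glp-1 was 3.81 and lag-1 minus sel-8 3.62 (lag-1 has 4695 bases of merged exons and 2370 of coding length). Without 1 replicate, glp-1 minus lin-12 lay between 5.31 and 6.01, lst-1 minus sygl-1 between -2.07 and -1.92, sel-12 minus hop-1 between -2.24 and -1.91, sygl-1 minus glp-1 between 3.49 and 3.55, lag-1 minus sel-8 between 2.70 and 3.11, and sup-17 minus sel-12 between 3.09 and 3.39. The 8 neighbouring pairs without overlap were 8 to 9 without a replicate, and sel-8 lay above lin-12 without overlap when replicate 1 or 3 was left out. Of the 10 genes, 4 had a coefficient of variation above the median, 5 with TMM or DESeq2 size factors, and 2 to 5 without a replicate, the 2 being without replicate 1. The coefficient of variation of glp-1, 1.58% on column totals, was 5.10% with TMM and 5.45% with DESeq2 size factors. Counting error limits lag-2, sel-8 and lin-12, which rest on at most 103 counts in a library.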
